A study of Mus musculus with 4 samples.

Results

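Eosinophils, basophils and mast cells are the granule-bearing effector cells of type 2 inflammation, and 10 genes that mark them (Epx, Prg2, Prg3, Ccr3, Il5ra, Alox15, Siglecf, Fcer1a, Mcpt8 and Cpa3) were followed here in RNA sequencing libraries of activated group 2 innate lymphoid cells (ILC2s). The members were taken from the 22558 genes of the deposited table by gene symbol, and all 10 were in it. They were selected on measured values, namely the difference of their counts between the genotypes, so those differences are given as a description, with no p-value, and support nothing.

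ILC2s are tissue lymphocytes that lack antigen receptors and answer the epithelial cytokine IL-33 with type 2 cytokines. The 2 WT libraries came from C57BL/6 mice and 2 others, labelled ICAM-1 KO and called KO-labelled here, from B6.129S4-Icam1 tm1Jcgr/J mice, which carry a germline mutation of Icam1 in all cells. All mice were 6 weeks old, had received 3 intranasal doses of 0.5 µg rmIL-33 and gave their lungs on day 4, and each library was a pool of 4 mice, so that no group without IL-33 was compared and n = 2 pools per genotype throughout. The cells were sorted as CD45+ ST2+ CD127+ after removal of cells positive for FcεRIα, for the T cell proteins CD3ε, CD4, CD5, TCRβ and TCRγδ, for the B cell form of CD45, or for the myeloid and erythroid proteins CD11b, CD11c, Gr-1 and Ter119, a gate that leaves out cells bearing the high-affinity IgE receptor of mast cells and basophils.

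The libraries held 24796148 to 28782471 counts. The log2 CPM of the 11711 genes that passed a filter on low counts correlated at 0.966 between the WT libraries, 0.969 between the KO-labelled libraries and 0.930 to 0.938 between genotypes. Icam1 itself had 2579 and 2630 counts in WT and 2812 and 3453 in the KO-labelled libraries (log2 fold change 0.33, standard error 0.108, adjusted p = 0.0745), so its RNA did not separate the genotypes in the direction of the label. At the protein level, the paper measured ICAM-1 on lung ILC2s by flow cytometry and states that ICAM-1−/− mice lack it. Where the mutation lies relative to the counted exons is not given in the sources used here, and an antisense gene overlaps Icam1. ILC2 genes were abundant in every library, and the 15 listed ones that were in the table summed to 6840 and 7159 normalized counts in WT and 6393 and 6479 in the KO-labelled libraries. In bulk RNA, fewer cells of a type and less RNA per cell cannot be told apart.

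Eosinophils store cationic proteins, among them eosinophil peroxidase and the major basic proteins, in granules whose genes are transcribed mainly while the cell matures in the bone marrow, and they carry the receptors for eotaxins and for IL-5, the cytokine that ILC2s supply. Mast cells and basophils store histamine and proteases and respond through the IgE receptor. GATA factors act in the development of all 3 lineages, and their binding motif lies in many promoters active there.

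The promoters of Epx, Prg3, Ccr3, Il5ra and Cpa3 are shown since these genes span the range of differences found, from undetected in the KO-labelled libraries to several-fold higher. Each line gives the 250 bases before the start of the gene in RefSeq on GRCm38.p6, written 5′ to 3′ on the strand of the gene, with each GATA motif in capitals, searched on both strands as AGATAA, as its variant AGATAG, and further as TGATAA or else as TGATAG.
Epx, chr11:87875537-87875786, minus strand: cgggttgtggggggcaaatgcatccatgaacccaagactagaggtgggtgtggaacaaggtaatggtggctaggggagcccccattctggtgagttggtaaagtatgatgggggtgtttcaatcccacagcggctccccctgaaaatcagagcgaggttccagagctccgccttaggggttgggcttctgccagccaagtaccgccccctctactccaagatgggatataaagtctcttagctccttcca
Prg3, chr2:84987965-84988214, plus strand: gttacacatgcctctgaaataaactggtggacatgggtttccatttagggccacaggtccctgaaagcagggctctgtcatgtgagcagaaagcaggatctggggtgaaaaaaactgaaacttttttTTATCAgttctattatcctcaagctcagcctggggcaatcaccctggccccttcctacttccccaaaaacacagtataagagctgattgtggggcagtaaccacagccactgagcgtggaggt
Ccr3, chr9:124021721-124021970, plus strand: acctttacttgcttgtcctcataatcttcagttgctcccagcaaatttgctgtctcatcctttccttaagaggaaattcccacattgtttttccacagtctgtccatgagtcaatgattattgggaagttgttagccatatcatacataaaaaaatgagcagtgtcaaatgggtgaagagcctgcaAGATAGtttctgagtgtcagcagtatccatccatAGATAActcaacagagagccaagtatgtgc
Il5ra, chr6:106749038-106749287, minus strand: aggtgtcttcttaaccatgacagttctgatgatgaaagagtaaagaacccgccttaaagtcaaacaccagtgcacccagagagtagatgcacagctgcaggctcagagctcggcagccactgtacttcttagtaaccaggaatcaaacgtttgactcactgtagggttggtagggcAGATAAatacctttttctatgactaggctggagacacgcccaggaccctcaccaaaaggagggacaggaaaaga
Cpa3, chr3:20242182-20242431, minus strand: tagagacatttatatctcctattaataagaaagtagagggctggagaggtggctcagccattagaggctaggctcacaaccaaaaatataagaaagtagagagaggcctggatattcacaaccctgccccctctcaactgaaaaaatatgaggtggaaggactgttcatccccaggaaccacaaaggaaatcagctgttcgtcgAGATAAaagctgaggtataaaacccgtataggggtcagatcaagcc
Of the 8 members with an entry in the promoter table (Prg2 and Alox15 had none), 5 held a match within these 250 bases, against 26.5% of the 32851 promoters in the table. Ccr3 held 2 matches, which begin 64 and 30 bases before the start, and 6.40% of all promoters hold 2 or more. Cpa3 held 1 match at 46 bases, Il5ra 1 at 74 bases, Fcer1a 1 at 92 bases and Prg3 1 at 123 bases, while the windows of Epx, Siglecf and Mcpt8 held none of these letters. Of the members with an entry, the 3 that were higher in both KO-labelled libraries (Ccr3, Il5ra and Cpa3) held a match, as did 1 of the 2 that were lower (Prg3) and 1 of the 3 that overlapped (Fcer1a), a description of letters in these windows only.

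The 10 members went 3 ways. The eosinophil granule genes Epx, Prg2 and Prg3 were lower in both KO-labelled libraries than in either WT library, Ccr3, Il5ra, Alox15 and Cpa3 were higher in both, and Siglecf, Fcer1a and Mcpt8 overlapped between the genotypes. These 4 higher and 3 lower genes stand beside a background of 28.3% and 31.3% of the 11711 genes tested whose normalized counts lay apart in those directions. Of the 8 members in the fit across all genes, 2 (Ccr3 and Il5ra) met the call of an adjusted p under 0.05 and at least 2-fold higher, which 4.94% of all tested genes met, and 2 (Epx and Prg2) met it in the lower direction, which 0.538% met. Since the members were chosen on this contrast, these counts only restate the choice and nothing is read from the comparison with the background. Prg3 and Siglecf did not pass the filter on low counts (normalized counts that average at least 1 and sum to at least 10) and were not tested.

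**Figure D1:**
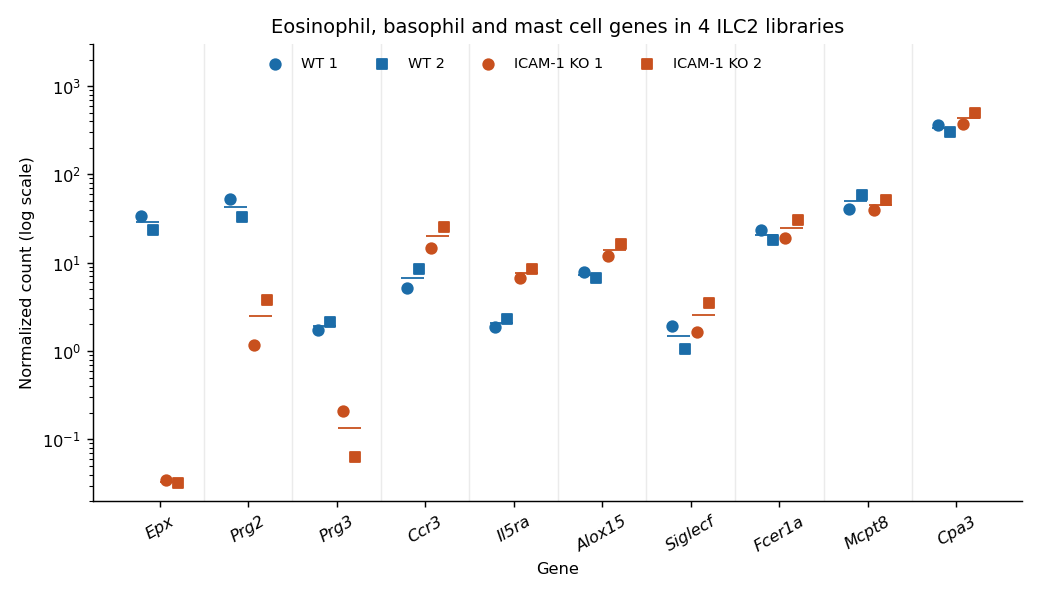
Normalized counts (log scale) of the 10 genes in each of the 4 libraries, with blue points for WT, orange points for the KO-labelled libraries and a short line at each mean of n = 2. Epx had 0 counts in both KO-labelled libraries and is drawn at the deposited values 0.0347 and 0.0319, which come from the 1 added to every count before scaling.

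Epx encodes eosinophil peroxidase, the haem enzyme of the specific granule, and lies in mm10 on chromosome 11 from 87864000 to 87875536 on the minus strand. WT replicates 1 and 2 held 1027 and 739 counts of it, and both KO-labelled libraries held 0. Its mean normalized count in WT was 28.7 ± 7.43 (SD, n = 2), at least 287-fold above the level of 3 counts per library that a count of 0 allows. No other member was at 0 in any library.

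Prg2 encodes major basic protein, the crystalline core of the eosinophil granule, and Prg3 its homologue. They are neighbours on chromosome 2, from 84980461 to 84983632 and from 84988215 to 84993886, both on the plus strand. Prg2 had 1583 and 1041 counts in WT and 33 and 118 in the KO-labelled libraries, or 42.6 ± 13.6 against 2.49 ± 1.85 normalized counts (SD, n = 2), which is 16.7-fold lower (log2 fold change -4.06). The gap between the genotypes was wider than the spread within either, although the size of the difference turned on single libraries, being 36.6-fold lower without ICAM-1 KO replicate 2 and 11.0-fold lower without ICAM-1 KO replicate 1.

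Prg3 was a low gene, with 52 and 66 counts in WT and 5 and 1 in the KO-labelled libraries. Scaled to the libraries, the summed counts of 118 and 6 gave a ratio of 0.0523, with an exact 95% interval of 0.0188 to 0.117 that covers counting error only. Its order among the KO-labelled libraries was the reverse of that of Prg2, which was lowest where Prg3 was higher.

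These eosinophil granule genes kept different proportions in the 2 genotypes. For each count of Prg2, WT libraries had 0.649 and 0.710 counts of Epx. With no Epx count in the KO-labelled libraries, the limit of 3 counts allows at most 0.0909 and 0.0254, both under the WT values, so Prg2 RNA remained measurable where Epx RNA was not. Prg3 took 0.0328 and 0.0634 counts per count of Prg2 in WT and 0.152 and 0.00847 in the KO-labelled libraries, values that overlap between the genotypes and rest on 5 and 1 counts in the latter.

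Ccr3 encodes the eotaxin receptor that guides eosinophils into tissue and is also found on basophils and on some T cells. It lies on chromosome 9 from 124021972 to 124031689 on the plus strand, the same chromosome as Icam1 (21015985 to 21028817) but not near it. It had 156 and 265 counts in WT and 419 and 803 in the KO-labelled libraries, or 6.80 ± 2.29 and 20.1 ± 7.80 normalized counts (SD, n = 2). The groups did not overlap, although the KO-labelled libraries (14.6 and 25.6) differed from each other by more than the lower of them did from the higher WT library (8.42). The fitted difference was 3.03-fold (log2 1.60), and it stayed, over fits that each left out 1 library, between 1.11 and 2.00 on the log2 scale.

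Il5ra encodes the IL-5 binding chain of the IL-5 receptor, which eosinophils, their precursors and B-1 cells carry, and lies on chromosome 6 from 106710357 to 106749037 on the minus strand. Its counts were 55 and 71 in WT and 191 and 268 in the KO-labelled libraries. The normalized counts of 2.06 ± 0.305 and 7.62 ± 1.35 (SD, n = 2) lay well apart for their spread, a 3.80-fold difference (log2 1.93, from 1.72 to 2.10 with a library left out). By length-corrected level Il5ra was the second lowest member in WT, above Siglecf with overlapping ranges. In the KO-labelled libraries Il5ra lay above Siglecf, Prg3 and Epx, of which Prg3 and Epx were themselves lower there than in WT. For each Il5ra count there were 2.84 and 3.73 counts of Ccr3 in WT and 2.19 and 3.00 in the KO-labelled libraries, so that the ratio of the 2 receptors overlapped between genotypes while both levels were higher.

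Alox15 encodes 12/15-lipoxygenase, which oxygenates polyunsaturated fatty acids in eosinophils and in resident macrophages, and lies on chromosome 11 from 70344152 to 70352031 on the minus strand. It had 235 and 212 counts in WT and 343 and 507 in the KO-labelled libraries, with no overlap (7.27 ± 0.740 and 14.1 ± 3.00 normalized counts, SD, n = 2). The fitted difference was 1.98-fold (log2 0.99), just under the 2-fold limit of a call. It was 2.29-fold without ICAM-1 KO replicate 1 and 1.67-fold without ICAM-1 KO replicate 2.

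Siglecf encodes the sialic acid binding lectin used to identify mouse eosinophils and alveolar macrophages, and lies on chromosome 7 from 43351341 to 43359531 on the plus strand. Its counts, 57 and 32 in WT against 46 and 110 in the KO-labelled libraries, overlapped after scaling, at 1.91 and 1.04 against 1.63 and 3.54 normalized counts. The ratio of the summed counts was 1.80 (exact 95% interval 1.38 to 2.36, counting error only), which does not reflect the overlap between libraries.

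Fcer1a encodes the IgE binding chain of the high-affinity IgE receptor, the protein against which the cells were sorted, and lies on chromosome 1 from 173221284 to 173227214 on the minus strand. Its RNA was nevertheless present in every library, with 714 and 567 counts in WT and 555 and 964 in the KO-labelled libraries. The groups overlapped at 20.8 ± 3.97 and 25.0 ± 8.09 normalized counts (SD, n = 2). The log2 fold change of 0.30 had no stable direction, since it was -0.09 without ICAM-1 KO replicate 2.

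Mcpt8, the protease mMCP-8 by which mouse basophils are known, lies on chromosome 14 from 56082166 to 56085273 on the minus strand, where it overlaps the microRNA gene Mir6949. It had 1234 and 1866 counts in WT and 1135 and 1622 in the KO-labelled libraries. At 49.9 ± 13.0 and 45.6 ± 8.68 normalized counts (SD, n = 2) the groups overlapped, and the log2 fold change of -0.10 became 0.19 without WT replicate 2 and 0.09 without ICAM-1 KO replicate 1.

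Cpa3 encodes mast cell carboxypeptidase, a granule enzyme of mast cells and basophils, and lies on chromosome 3 from 20215620 to 20242181 on the minus strand, overlapping the microRNA gene Mir7007. It was by far the most abundant member, with 11017 and 9661 counts in WT and 10844 and 15448 in the KO-labelled libraries. After scaling, these were 364 and 306 against 376 and 492 normalized counts, so the genotypes did not overlap although WT replicate 1 and ICAM-1 KO replicate 1 nearly met. The fitted difference was 1.32-fold (log2 0.40), and 1.14-fold without ICAM-1 KO replicate 2. Cpa3 had 8.93 and 5.18 counts per count of Mcpt8 in WT and 9.55 and 9.52 in the KO-labelled libraries, and the lower WT value came from the library with the most Mcpt8.

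**Figure D2:**
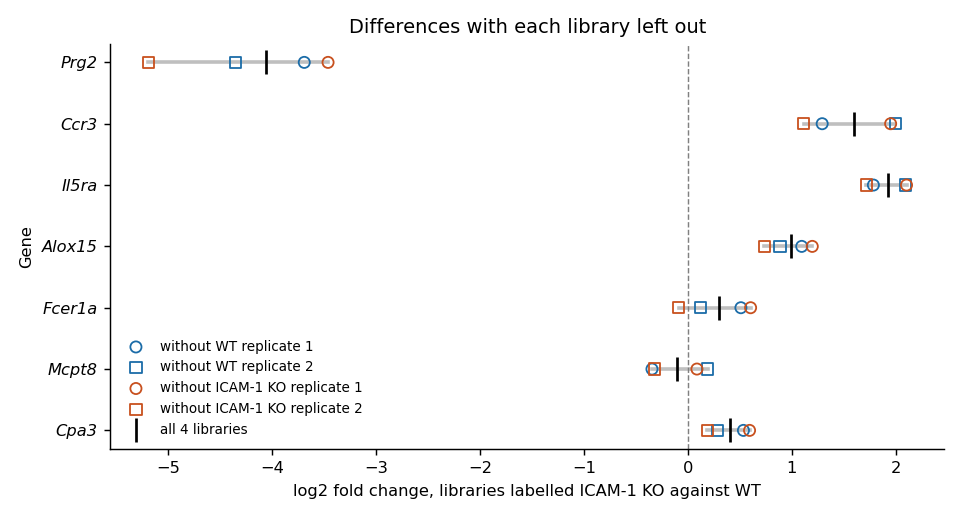
Log2 fold changes of 7 members between the KO-labelled libraries and WT, with a black tick for all 4 libraries, open symbols for fits that leave out 1 library and a grey line over their range. Prg2 stayed below 0 and Ccr3, Il5ra, Alox15 and Cpa3 above 0 in all 4 such fits, while Fcer1a and Mcpt8 crossed 0, and Epx is not drawn because its value depends on the prior count added in the fit.

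Levels were then compared between genes per length, as TPM, a length-corrected level scaled to the same total in every library, over the union of each gene's exons. Cpa3 led in both genotypes, at 686 ± 96.9 TPM in WT and 922 ± 139 TPM in the KO-labelled libraries (SD, n = 2), above 98.9% to 99.4% of all genes. In WT it was followed by Prg2 (158 TPM), Mcpt8 (155), Fcer1a (64.7), Epx (32.6), Alox15 (9.17), Ccr3 (6.41), Prg3 (6.22), Il5ra (1.76) and Siglecf (1.62). The neighbours Prg2 and Mcpt8, Ccr3 and Prg3, and Il5ra and Siglecf had overlapping ranges, and the other neighbours did not.

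In the KO-labelled libraries the order of levels was Cpa3, Mcpt8 (147 TPM), Fcer1a (80.4), Ccr3 (19.7), Alox15 (18.4), Prg2 (9.32), Il5ra (6.83), Siglecf (2.92), Prg3 (0.356) and Epx (0), with overlapping ranges for Ccr3 and Alox15 and for Prg2 and Il5ra. The mast cell and basophil genes Cpa3, Mcpt8 and Fcer1a thus headed the list in both genotypes apart from Prg2 in WT. Prg2 lay above 95.9% and 93.4% of all genes in the WT libraries and above 51.8% and 68.0% in the KO-labelled libraries. Epx lay above 82.9% and 78.1% in WT and above none in the others.

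**Figure D3:**
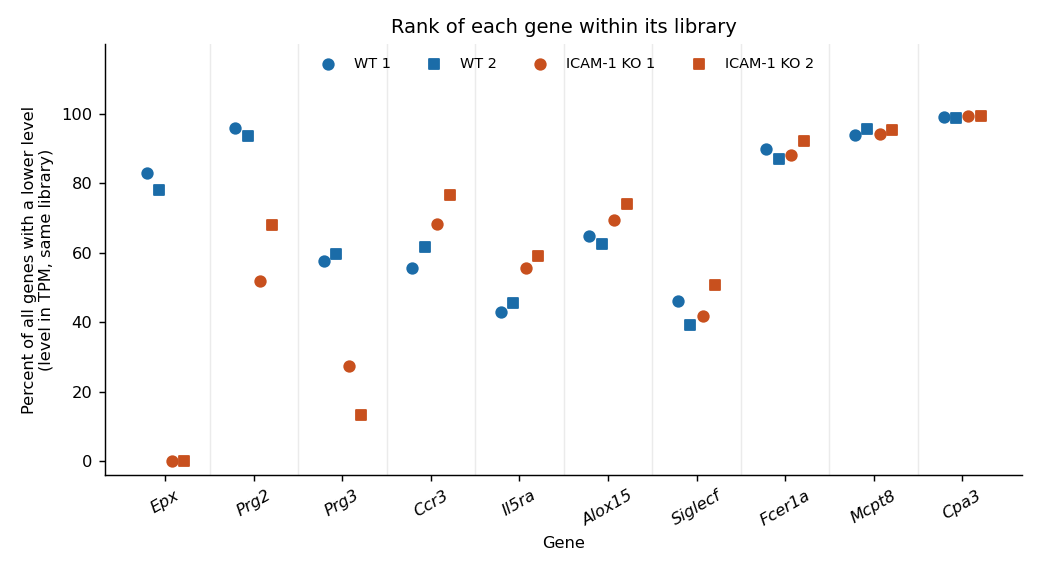
Percent of all genes with a lower TPM than each of the 10 members in the same library, with blue points for WT and orange points for the KO-labelled libraries. Cpa3, Mcpt8 and Fcer1a stayed between 86.9% and 99.4% in all 4 libraries, while Epx, Prg2 and Prg3 moved down and Ccr3, Il5ra and Alox15 up in rank.

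How far these reads can be assigned to the members was checked on the annotated transcripts. No 50-base window of Epx, Prg2, Prg3, Ccr3, Alox15, Fcer1a, Mcpt8 or Cpa3 occurs in a transcript of another gene, so the paired loci Prg2 and Prg3 share none. In Il5ra 37 of 3670 windows (1.01%) and in Siglecf 6 of 2915 (0.206%) do, the latter with Siglecg and Gm29791.

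The members lie on 8 chromosomes, and most of their neighbours were not called. Within 1 Mb of Epx none of 25 tested genes was called in either direction by edgeR or limma and 1 by DESeq2, with 5 at an unadjusted p under 0.05. Among these 5 was the neutrophil gene Mpo, from 87793581 to 87804413. Its groups overlapped (edgeR log2 fold change -1.62, adjusted p = 0.101). Around Cpa3 none of 8 and around Il5ra none of 2 was called by any of the 3 tools, with 0 and 1 at an unadjusted p under 0.05. Near Prg2 2 of 16 tested neighbours were called higher (Aplnr and Ctnnd1). Around Ccr3 1 of 20 (Ccr9) and around Alox15 1 of 58 (Cd68, a macrophage gene) were called higher. Siglecf had 2 called higher of 11, both other Siglec genes (Cd33 and Siglecg), and Mcpt8 had 2 of 39 (Adcy4 and Gzmc). Fcer1a had the most, with 3 higher and 3 lower of 15 (Dusp23, Ifi203-ps, Ifi206, Ifi211, Mndal and Slamf9), although its own groups overlapped.

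The tested genes whose pattern over the 4 libraries came closest to that of Epx were Gm6213, Prg2 and Ctse, at distances of 4.45, 5.58 and 5.71 between centred log2 normalized counts. These distances depend on the 1 added to each count, since Epx had 0 counts in both KO-labelled libraries. Epx and Prg2 were both chosen on the contrast of the genotypes, so nothing is read from their nearness. Gm6213 had 297 and 279 counts in WT and 3 and 10 in the KO-labelled libraries. Ctse, which encodes the protease cathepsin E, had 4171 and 4848 against 238 and 292. The closest to Cpa3 were Dhx40, Akap8l and Uap1, at 0.0206, 0.0455 and 0.0596.

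The wider expression programme of the same cells was described with 40 further eosinophil, basophil and mast cell genes, of which 39 were in the table and 29 were tested. They were listed with earlier results of these data known, so what follows is a description and no independent check. Among these 29, 2 rose by at least 2-fold and 7 rose at any fold at an adjusted p under 0.05, a level that 8.80% of all tested genes reached upwards and 4.97% downwards. None was called lower by edgeR, DESeq2 or limma, and 1 had an unadjusted p under 0.05 in that direction. The log2 fold change was above 0 for 24 and below 0 for 5, with a median of 0.49 against 0.01 for all tested genes and 0.35 for the 8 members tested.

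Among the 8 tested eosinophil genes, Cd101, a surface protein of inflammatory eosinophils and other myeloid cells, rose from 303 and 266 to 662 and 652 counts (log2 fold change 1.27, standard error 0.216, adjusted p = 0.00766). Trib1, a pseudokinase needed for eosinophil identity, rose by 0.74 on the log2 scale (adjusted p = 0.0143) and the eosinophil ribonuclease gene Ear2 by 0.85 (adjusted p = 0.0473), and both missed the threshold without WT replicate 1 (adjusted p = 0.0557 and 0.144), as did Trib1 without WT replicate 2 (0.0641) and without ICAM-1 KO replicate 2 (0.0610). Ear1, a close relative of Ear2, had 137 and 243 counts in WT and 51 and 97 in the KO-labelled libraries (log2 fold change -1.29, adjusted p = 0.0854). Since 57.4% of the 50-base windows of Ear1 and 41.5% of those of Ear2 occur in other Ear genes, reads may have been split between them. Ear6, with 80 and 101 counts in WT and 7 and 7 in the others, shares 0.954% of its windows but fell under the filter on low counts, and passed the call (adjusted p = 0.0411) in the fit without that filter. Rnase2a, a further eosinophil ribonuclease gene, had 346 and 333 counts in WT and 419 and 448 in the KO-labelled libraries (log2 fold change 0.42, adjusted p = 0.240), so the ribonuclease genes of the list did not share 1 direction. Of the 14 eosinophil genes in the table, 7 were higher in both KO-labelled libraries than in either WT library, 3 (Ear1, Ear6 and Cebpe) were lower in both and 4 were counted as overlapping. Among these was Rnase2b, which had no normalized value and was set to 0, with 4 and 0 counts in WT and 4 and 10 in the others. Over all tested genes, 28.3% lay higher in both KO-labelled libraries and 31.3% lower in both. Among the 7 higher genes, Ltc4s and Hrh4 fell under the filter on low counts, as did Ear6 and Cebpe among the 3 lower. Cebpe had 8 and 17 counts in WT and 3 and 0 in the others.

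Of the 7 tested basophil genes none was called in either direction by edgeR, DESeq2 or limma, with 3 at an unadjusted p under 0.05 upwards and 0 downwards. Hdc, the enzyme that makes histamine, rose by less than 2-fold from 3144 and 3001 to 4133 and 5215 counts (log2 fold change 0.67, adjusted p = 0.00705), and Gata2 had 0.34 (adjusted p = 0.123). Ms4a2, the chain that joins Fcer1a in the IgE receptor, had a log2 fold change of 0.49 (adjusted p = 0.265) beside the 0.30 of Fcer1a.

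The 14 tested mast cell genes held 1 call, the tryptase gene Tpsab1, which rose from 2098 and 1409 to 3200 and 3603 counts (log2 fold change 1.02, adjusted p = 0.00873) and was under 2-fold without WT replicate 2 (log2 fold change 0.73) and without ICAM-1 KO replicate 2 (0.98). The chymase gene Cma1 rose from 13514 and 10946 to 15826 and 22040 counts (log2 fold change 0.69, adjusted p = 0.0179) and the tryptase gene Tpsb2 by 0.79 (adjusted p = 0.0227), and both missed the threshold without WT replicate 2 (adjusted p = 0.109 and 0.122), as did Tpsb2 with DESeq2 (adjusted p = 0.0814). Kit, the stem cell factor receptor of mast cells, counted 7368 and 6464 in WT and 6283 and 6153 in the others (log2 fold change -0.09, adjusted p = 0.631). Cpa3 at 0.40 lay between Kit and Cma1, and Cpa3, Cma1, Tpsb2 and Kit each had 6153 counts or more in every library, behind a gate that leaves out cells with FcεRIα on their surface.

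**Figure D4:**
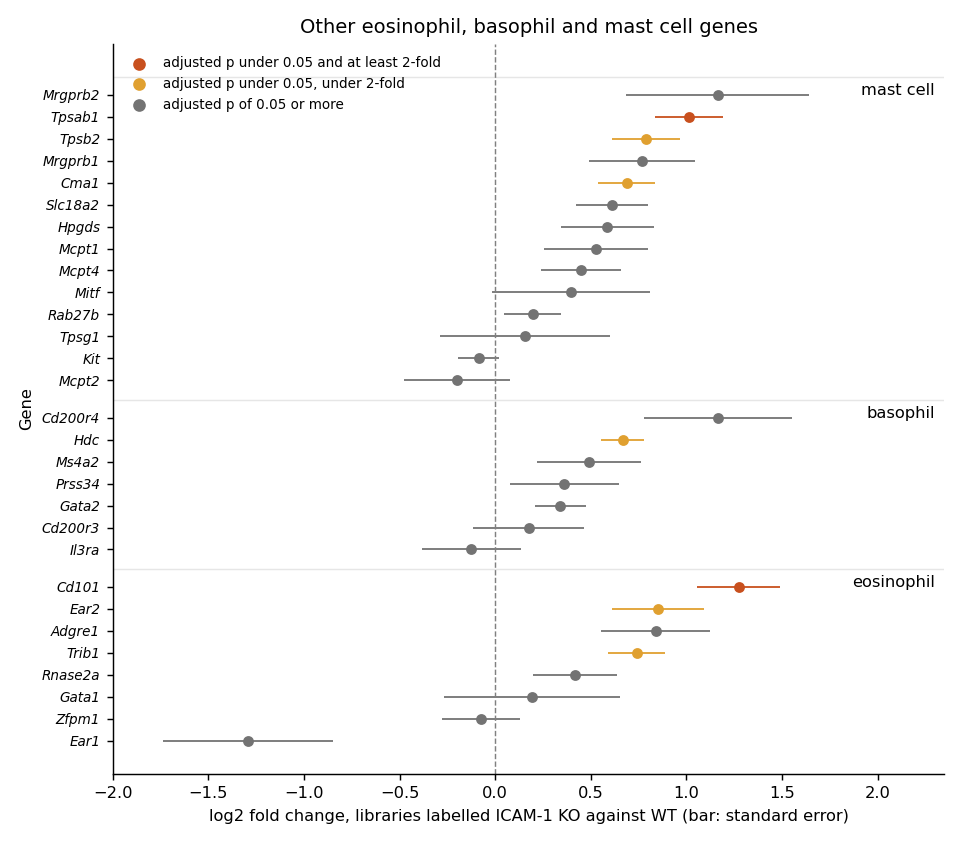
Log2 fold changes with standard errors of the 29 tested genes of the eosinophil, basophil and mast cell lists, from edgeR on n = 2 libraries per genotype, with colour for the adjusted p. Of these, 24 lie to the right of 0, Cd101 and Tpsab1 passed the 2-fold call, and Ear1 lies farthest to the left at -1.29.

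Partners of the member receptors and their ligands were followed in the same way. Of the 10 partner chains and signalling proteins 1 was called higher, the kinase Syk (log2 fold change 1.50, adjusted p = 0.00274), and none lower by any of the 3 tools, with 1 at an unadjusted p under 0.05 downwards. Csf2rb, the chain that signals for Il5ra, rose by 0.75 on the log2 scale (adjusted p = 0.00662), while Fcer1g, the signalling chain of the IgE receptor, had 0.50 (adjusted p = 0.0534), which passed with TMM factors, with DESeq2 and without ICAM-1 KO replicate 1. Jak2 rose by 0.32 (adjusted p = 0.0365, and not without any 1 of the 4 libraries, at 0.0757 to 0.160), and Stat5b had 0.12 (adjusted p = 0.600). Csf2rb shares 12.3% of its windows, some of them with Csf2rb2.

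Of the 6 tested ligand and growth factor genes, Il33 alone was called higher, from 27 and 10 to 201 and 332 counts (log2 fold change 3.90, adjusted p = 0.00324). Its size turned on the WT libraries, at 4.81 without WT replicate 1 and 3.33 without WT replicate 2. None of the 6 was called lower by edgeR, DESeq2 or limma, with 2 at an unadjusted p under 0.05 downwards. The ligand of Il5ra fell by less than 2-fold, with Il5 at 31457 and 39534 counts in WT and 19246 and 20581 in the KO-labelled libraries (log2 fold change -0.76, adjusted p = 0.00274), so ligand and receptor RNA differed in opposite directions. Csf2 fell by 0.57 on the log2 scale (adjusted p = 0.0352, and 0.180 without WT replicate 1 and 0.0600 without ICAM-1 KO replicate 1). The eotaxin gene Ccl11, a ligand of Ccr3, had 0 and 2 counts in WT and 31 and 136 in the others and was not tested. Il5 and Csf2 each overlap an antisense gene.

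Around Alox15, none of 7 tested lipoxygenase pathway genes was called in either direction by edgeR, DESeq2 or limma, with 0 at an unadjusted p under 0.05 upwards and 3 downwards. Alox5 had a log2 fold change of 0.05 (adjusted p = 0.711) and Gpx4 of -0.25 (adjusted p = 0.0980, and 0.0423 with DESeq2). Pebp1, whose product binds 15-lipoxygenase, fell by less than 2-fold (log2 fold change -0.32, adjusted p = 0.0358), and missed the threshold without any 1 of the 4 libraries (adjusted p = 0.102 to 0.124). Among 3 tested Siglec genes, Siglecg (1.09, adjusted p = 0.0120) and Cd33 (1.31, adjusted p = 0.0484) were called higher and Cd22 was not (0.75, adjusted p = 0.0760), while limma called 0 of the 3 higher. Siglecg lost the call without WT replicate 1 or 2 (log2 fold change 1.11 and 1.07). It was under 2-fold without ICAM-1 KO replicate 1 (0.91). Cd33 lost the call without WT replicate 1, WT replicate 2 or ICAM-1 KO replicate 1 (1.35, 1.27 and 1.03). Cd33 also missed the threshold with limma (adjusted p = 0.0552), with the older quasi-likelihood form (0.0601) and with a filter of 10 counts in every library (0.0517).

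Genes of other lung cells that also express some members moved with the genotype, and their part in the values above was not tested. Of 10 tested alveolar macrophage genes, 9 were called higher, and the list of 13 summed to 244 and 477 normalized counts in WT and 1158 and 1567 in the KO-labelled libraries, with Fabp1 at 0 in 3 libraries and Cidec at 0 in 1. Chil3 alone made up 211 and 423 of these sums in WT and 1052 and 1423 in the KO-labelled libraries. The paper cites Chil3 as expressed by IL-10-producing lung ILC2s, so the sum cannot be read as a level of macrophages. The log2 fold changes of these 9 ran from 1.06 for Cd68 to 4.06 for Mertk, whose counts went from 4 and 19 to 162 and 208 and whose value stood at 3.37 without WT replicate 1 and 5.52 without WT replicate 2. Chil3, the gene of the list with the most counts, rose by 1.99 on the log2 scale (adjusted p = 0.00324, and 1.58 to 2.58 with a library left out). Car4, the next by counts, rose by 1.66 (adjusted p = 0.0266, from 1.09 to 2.36 with a library left out) and missed the threshold without WT replicate 1 (adjusted p = 0.122) and with DESeq2 (0.0994). These cells carry Siglecf, and resident macrophages can express Alox15.

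Called higher were further 6 of 10 monocyte and dendritic cell genes, 7 of 13 neutrophil genes, 3 of 9 B cell and plasma cell genes, 5 of 9 T cell genes, 3 of 7 epithelial genes and all 8 endothelial genes. Of the 2 genes with the most counts in each list, Lyz2 (log2 fold change 1.46), S100a9 (1.32), Trac (1.60), Ramp2 (1.41) and Pecam1 (1.07) were called, while Ccr2 (0.32) and Trbc2 (0.25) were not. Mzb1, a plasma cell gene, was called at 1.74 (adjusted p = 0.0207), ran from 1.13 without WT replicate 1 to 2.86 without WT replicate 2 and missed the threshold with DESeq2 (adjusted p = 0.110). Jchain, the joining chain of secreted antibodies, was not called at 1.23 (adjusted p = 0.0877) but was without WT replicate 2 (2.29, adjusted p = 0.00951) and without ICAM-1 KO replicate 1 (1.56, adjusted p = 0.000302). Sftpc, a surfactant gene of the alveolar epithelium, was called at 5.05 although the WT libraries themselves held 731 and 17 counts against 7290 and 16847, and it stood at 4.06 without WT replicate 2 and 9.54 without WT replicate 1. Scgb1a1 of the airway epithelium (0.43) and the neutrophil gene Mpo (-1.62) overlapped between the genotypes, and Mpo met the call in the lower direction without WT replicate 2 (-2.28, adjusted p = 0.0347) and without ICAM-1 KO replicate 2 (-2.69, adjusted p = 8.54e-05). None of these 6 lists or the macrophage list held a gene called lower by edgeR, DESeq2 or limma, and 1 neutrophil and 1 T cell gene had an unadjusted p under 0.05 in that direction. Summed levels of the B cell and plasma cell list were 259 and 439 normalized counts in WT and 680 and 816 in the KO-labelled libraries. Jchain alone made up 74.2 and 234 of these sums in WT and 266 and 442 in the KO-labelled libraries. Whether such cells contributed to the Il5ra counts was not tested. Of 15 tested ILC2 genes none was called higher by these 3 tools, with 3 at an unadjusted p under 0.05, and 1 was called lower, the cytokine gene Il13, which fell from 955 and 1110 to 318 and 405 counts (log2 fold change -1.45, adjusted p = 0.00247). Arg1 fell by less than 2-fold (-0.65, adjusted p = 0.00371), and Ptprc rose by less than 2-fold (0.39, adjusted p = 0.0138, and 0.0763 and 0.0800 without WT replicate 1 or 2).

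The summed levels of the lists of further eosinophil, basophil and mast cell genes were higher in both KO-labelled libraries as well. The eosinophil list summed to 111 and 113 normalized counts in WT and 151 and 165 in the others, the basophil list to 190 and 170 against 234 and 275, and the mast cell list to 1277 and 1060 against 1514 and 1837. Hdc alone made up 104 and 95.1 of the basophil sums in WT and 143 and 166 in the others. In the basophil list 6 genes were higher in both KO-labelled libraries, 1 was lower in both and 2 overlapped. The mast cell list held 6 that were higher in both and 10 that overlapped. These 2 sums therefore cannot be read as levels of basophils or mast cells. Of the 39 genes of these lists in the table, Cebpe was at 0 in ICAM-1 KO replicate 2, Serpinb10 in ICAM-1 KO replicate 1, Rnase2b and Enpp3 in WT replicate 2, and Mcpt9 in 1 library of each genotype. The eosinophil list did not move as a whole. In it, 7 genes were higher in both KO-labelled libraries, with the largest gains in Trib1, Ear2 and Cd101. Another 3 (Ear1, Ear6 and Cebpe, the last with 3 and 0 counts in the KO-labelled libraries) were lower in both, and 4 were counted as overlapping. Over all tested genes, 28.3% lay higher in both KO-labelled libraries and 31.3% lower in both. The sum of the eosinophil list therefore cannot be read as a level of eosinophils. Other myeloid cells also carry Cd101, and their part in the sum was not tested.

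**Figure D5:**
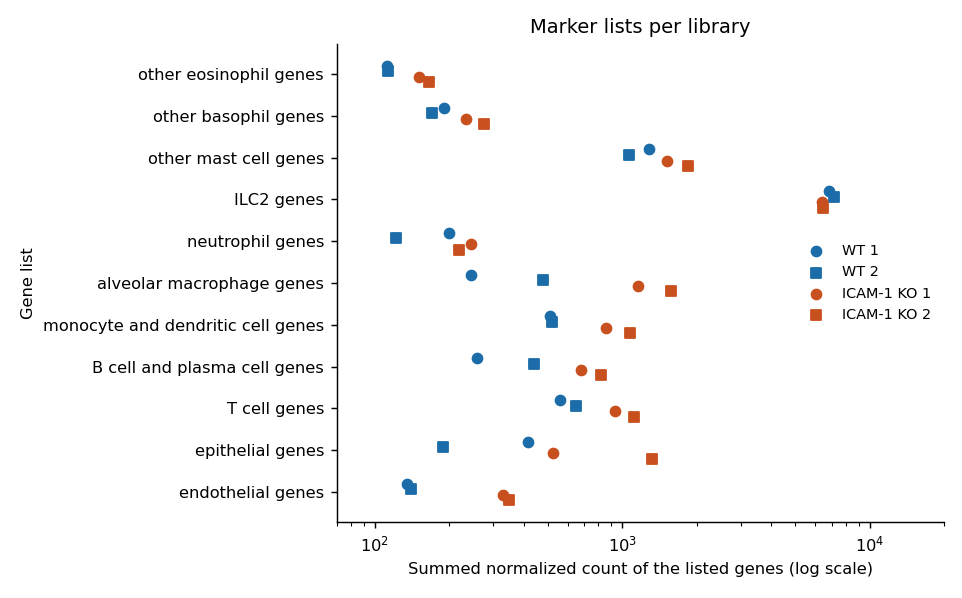
Summed normalized counts (log scale) of 11 gene lists in each of the 4 libraries, with blue points for WT and orange points for the KO-labelled libraries. The alveolar macrophage list, most of it Chil3, lies between 244 and 477 in WT and between 1158 and 1567 in the KO-labelled libraries. The mast cell list lies between 1060 and 1277 in WT and between 1514 and 1837 in the KO-labelled libraries. The ILC2 list lies between 6840 and 7159 in WT and between 6393 and 6479 in the KO-labelled libraries.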

How the data were processed

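RNA of sorted lung ILC2s was sequenced in 2 WT and 2 libraries labelled ICAM-1 KO, grouped by the sample labels. The authors made cDNA with a SMARTer Ultra Low Input kit, used STAR to align the reads to mm10 (GENCODE M20) and estimated expected counts per gene in Partek. The submitters' processing notes name CASAVA 1.8.2, STAR 3.5.3 and Partek. The deposited expected counts cover 22558 genes and 64.0% of them are whole numbers. The deposited normalized signal covers 18324 genes and equals the count plus 1 times 1 factor per library, from upper quartile normalization. Whether counting used strand is not given in the sources used here.

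Counts were rounded and tested in R 4.3.3 with edgeR 4.0.16 (glmQLFit with legacy set to FALSE, glmQLFTest, two-sided, upper quartile factors, no covariate) on the 11711 genes whose normalized counts averaged at least 1 and summed to at least 10, with Benjamini-Hochberg adjustment. A call needed an adjusted p under 0.05 and at least a 2-fold change. The GSA test of the study was not run. The alternatives were TMM factors, DESeq2 1.42.0, limma 3.58.1, other filters, the older quasi-likelihood form, a replicate block, leaving out each library and transcript length. The code was tested on simulated data. Means and SDs are over the authors' normalized counts, and p-values measure the spread between pools, which may be partly technical.

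TPM values were computed over exons of GENCODE M21, to which 21881 genes (97.0%) were matched. Coordinates are those deposited, with the end moved by 1 base. The depth of 24796148 to 28782471 counts sets a floor of 3 counts per library, and floors and intervals cover counting error only, since the reads carry no molecular identifiers. The members and all gene lists were chosen with earlier results of these data known. Besides the members, Icam1 and the genes nearest in pattern to Epx and Cpa3, the text names up to 4 called genes and up to 2 genes not called with the highest mean from each list of related genes, and the 2 highest from each list of other cells. Ear1, Ear6, Rnase2a, Cebpe, Ltc4s, Hrh4, Pebp1, Il13, Cd68, Mertk, Ms4a2, Kit, Csf2rb, Fcer1g, Ccl11, the called neighbours of members and genes at 0 were named after their values were seen.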

Additional observations from a re-analysis of the deposited data

How the results depend on the processing

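With 2 libraries per genotype the number of genes called depended on single libraries and on the filter. Against 578 genes higher and 63 lower, the fit with no filter on low counts called 273 and 39, and leaving out 1 library gave 338 to 596 higher, the lowest of these without WT replicate 1, and 48 to 80 lower. Among the further eosinophil, basophil and mast cell genes, 2 were called higher and 0 lower. With no filter 1 was called higher (Cd101) and 1 lower (Ear6), where more genes share the adjustment. Leaving out 1 library gave 1 to 5 called higher, with 5 without ICAM-1 KO replicate 1 and 1 (Cd101) without ICAM-1 KO replicate 2, and 0 lower, and Cd101 was among them each time. The cause of these shifts was not tested.

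The replicate numbers of the labels name pools of different mice, and libraries of the same number did not deviate together (correlation -0.0582). A fit with the replicate block called 601 genes higher and 67 lower, and 2 and 0 of the further genes. Of the named genes that are not members, the block moved 3 across the threshold, with Cd33 no longer past it (adjusted p = 0.0528) and Jchain (log2 fold change 1.39, adjusted p = 0.000957) and Ccr2 (0.32, adjusted p = 0.0308) past it. Of 87 alternative values of the members' log2 fold changes, 7 moved by more than 1 SD, none of them for Ccr3, Mcpt8 or Cpa3. Epx was -12.17 with DESeq2 and -4.82 with limma, values that depend on the prior count or pseudocount. Of the alternatives for named genes that are not members, 430 stayed on their side of the threshold, 47 lost it and 13 passed it, and 14 of the 47 came from the fit with no filter, where Trib1, Ear2, Hdc, Tpsab1, Cma1, Tpsb2, Jak2, Csf2, Siglecg, Cd33, Car4, Mzb1, Sftpc and Pebp1 missed it. A further 4 changed sign on leaving out 1 library. Stat5b ran from -0.062 without WT replicate 1 to 0.33 without WT replicate 2, and Kit from -0.21 without WT replicate 2 to 0.043 without WT replicate 1. Scgb1a1 ran from -0.95 without ICAM-1 KO replicate 2 (adjusted p = 0.0103) to 1.19 without WT replicate 1, and was -0.062 without WT replicate 2. The older quasi-likelihood form lost Ear2, Csf2 and Cd33. Per longest transcript, 9 of 10 levels moved by less than 1 SD and that of Mcpt8 was 122 TPM. With 6 counts of Prg3 and 0 of Epx in the libraries labelled ICAM-1 KO, depth limits their ratio to bounds and wide intervals.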
